A study of Mus musculus with 11 samples.

Results

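The 3′ ends of protein-coding genes were described in 11 mouse ChIP-Seq libraries of the histone variants H3.3 and MacroH2A2. A gene end was taken where the gene was protein-coding, lay on chromosomes 1 to 19 of mm9 in the GENCODE vM1 annotation, was at least 10 kb long and had no annotated gene TSS within 5 kb of the end. This held for 10460 of 21418 protein-coding genes, and 198 of these lay in 100 kb tiles that were discarded for high signal without Dox, which left 10262 ends (5106 on the plus and 5156 on the minus strand). The genes had a median length of 36.3 kb and a last exon of 1275 bp in the median, and 97.05% of end bases lay in an annotated UTR.

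The ES cells were KH2 cells (129 X C57bl/6), which carry the M2rtTA transactivator at ROSA26 and a TetO-driven HA-tagged histone cassette downstream of Col1a1, so that Dox (2 μg/ml) turns on the tagged histone. HA-H3.3 ES cells were collected after 3 and 6 h of Dox. HA-Macro (HA-MacroH2A2) ES cells were collected without Dox and after 3, 6 and 12 h, and HA-Macro MEFs, which were grown from chimeric embryos made with these ES cells and freed of host cells with puromycin, after 3, 6 and 12 h. The remaining libraries, 1 labelled as parental KH2 ES cells and 1 as wild type MEFs, were made with an antibody against MacroH2A2 itself, which here is called anti-MacroH2A2, and each combines 2 replicates. The sources differ on whether these cells carried the HA-Macro cassette and on their Dox state, so only antibody and cell type were used. Feeder cells were depleted before the ES cells were used, and no RNA was measured in these libraries, so the cell type was not checked against expressed markers. Each condition has 1 library, so there is no spread between replicates and no test, and all intervals below are 95% counting intervals.

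As background, a gene end is where the transcript is cut and polyadenylated: a signal in the RNA, most often AATAAA when written as DNA, is bound by the cleavage and polyadenylation specificity factor shortly before the cut, and RNA polymerase II goes on past that point before it leaves the DNA. The A- and T-rich sequence at such sites is known to be poor in nucleosomes. H3.3 is a histone H3 variant that is deposited outside of replication, mostly where nucleosomes are lost through transcription. MacroH2A2 is an H2A variant with a large extra domain that is commonly described as repressive. In ES cells, the study that made these libraries also found it at promoters of expressed genes. A newly made tagged histone enters chromatin both where nucleosomes are replaced and, in cycling cells, behind the replication fork, so that early and late times of a course hold different mixtures of the 2 routes, and the antibody against MacroH2A2 itself shows where the protein resides in total.

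The number of mapped intervals per library ranged from 6488112 (HA-H3.3 at 3 h) to 20541627 (HA-Macro MEFs at 12 h), and 297823 to 796648 interval midpoints per library lay within 4 kb of the gene ends. The median end held 26 to 72 of them in that span, and no single end gave more than 0.170% of a library's midpoints at the ends. Counting error is therefore small for averages over all ends and large for single ends. Counting intervals leave out the spread between ends, and 1 end weighs more in a group of few ends. Intervals are 150 bp long in the HA-Macro libraries and 400 bp in the other 4, from HA-H3.3 and anti-MacroH2A2. Repeated sequence is also nearly empty in these 4: at the 157 ends where under 10% of 32-base words occur 1 time in the genome, the midpoints per end were 0.0270 to 0.0433 times those at the 7855 ends with over 90% unique words, against 0.600 to 0.857 times in the HA-Macro libraries. The share of chromosome Y among distinct intervals was 0.112% in HA-Macro ES cells at 3 h and 0.0219% to 0.0244% in the other 3 HA-Macro ES libraries. HA-H3.3 had 0.102% at 3 h and 0.0673% at 6 h, and anti-MacroH2A2 had 0.100% in ES cells and 0.0423% in MEFs. HA-Macro MEFs had 0.0198% to 0.0226%. The main values resting on the 3 h HA-Macro ES library are therefore also given with the 6 h library. Levels below are log2 of the midpoints per base pair in a window over those from 3 to 4 kb past the end, summed over all 10262 ends, so that 0 means as many as 3 to 4 kb past the end. In HA-H3.3 at 6 h the last 1 kb had a counting interval of 0.19 to 0.22, while single autosomes ran from 0.04 to 0.41. In HA-Macro ES cells at 12 h, 1 to 2 kb past the end, the highest autosome was at 0.29 and the median autosome at 0.00.

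The sequence of the ends is shown first because the narrowest feature of the profiles lies on it. AATAAA was found in the last 40 bases of 57.5% of the ends, against 2.27% of 40 base windows located 500 bp earlier and 2.23% of those 500 bp later. It was found in 52.4% of all protein-coding ends of these chromosomes. Sequence was searched at 10260 ends. The most common variant, ATTAAA, was found in 17.0%, counted whether or not AATAAA was present. The first A of AATAAA lay 23 bases before the end in the median, and 84.5% of these signals began 15 to 30 bases before it. Below are the last 30 bases of 8 genes that the results return to, 5′ to 3′ on the gene's strand in mm9, with the AATAAA or ATTAAA nearest the end in capitals; searches were on the gene's strand only, and the reverse complements TTTATT and TTTAAT were found in 5.88% and 5.32% of the ends.
Wipi2 (chr5:143146513-143146542, plus strand): attttgaaaaATTAAAcctttttcaagctg
Eif4g2 (chr7:118211499-118211528, minus strand): ccataagccaaAATAAActcttgaacattg
Dennd4c (chr4:86496478-86496507, plus strand): ttaaagttgAATAAAaagaaaaatctcaaa
Shank3 (chr15:89390663-89390692, plus strand): tattatgtAATAAAtttataagaaatgaaa
Shq1 (chr6:100523075-100523104, minus strand): ttgaaaAATAAAgttctgaagtattcttta
Zfp697 (chr3:98235842-98235871, plus strand): ttgtcATTAAAtccctaccagtcttttatc
Anp32e (chr3:95751284-95751313, plus strand): ttgAATAAAttgaagcgttattaataatga
Srebf1 (chr11:60012591-60012620, minus strand): ggaaAATAAAcatcttttagaaacagctcg
Over all ends, A made up 41.7% and G 13.8% of the bases 30 to 11 before the end, T made up 37.7% of the first 30 bases past it, and 500 bp before the end A and G stood at 26.8% and 22.3%.

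HA-H3.3 in ES cells was higher near gene ends than 3 to 4 kb past them. At 6 h it was, summed over all ends, as high past the end as before it. At 6 h the level was 0.07 (0.06 to 0.09) from 4 to 3 kb before the end, 0.21 (0.19 to 0.22) in the last 1 kb, which is 1.15-fold, 0.22 (0.21 to 0.24) in the first 1 kb past the end and 0.17 (0.16 to 0.19) in the next. At 3 h the same windows stood at 0.17, 0.24, 0.16 and 0.11. From 3 to 6 h the level in the gene body therefore fell by 0.10 (-0.13 to -0.07) relative to 3 to 4 kb past the end and that of the first 1 kb past the end rose by 0.06 (0.03 to 0.09), the latter on 16 of 19 autosomes. These are small values beside those at the starts of the same genes, where the HA-H3.3 level within 600 bp of the TSS was 1.48 at 3 h and 1.84 at 6 h.

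Scaled to the gene body 4 to 3 kb before the end instead, HA-H3.3 at 6 h was still higher in the first 1 kb past the end, by 0.15 (0.13 to 0.16). In the other 10 libraries this value lay between -0.23 (anti-MacroH2A2 in ES cells) and 0.01 (HA-Macro ES cells at 6 h, -0.01 to 0.02), and at 3 h HA-H3.3 gave -0.01 (-0.03 to 0.01). Repeated sequence differs little between these windows, with 91.3% unique words in the first 1 kb past the end and 91.1% from 4 to 3 kb before it. It differs more from the scaling window past the end, where 87.3% of words were unique against 92.5% in the last 1 kb, and dividing each window by its share of unique words brought the level of the last 1 kb at 6 h from 0.21 to 0.12 (0.11 to 0.14). Division by the library without Dox brought it to 0.08.

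**Figure D1:**
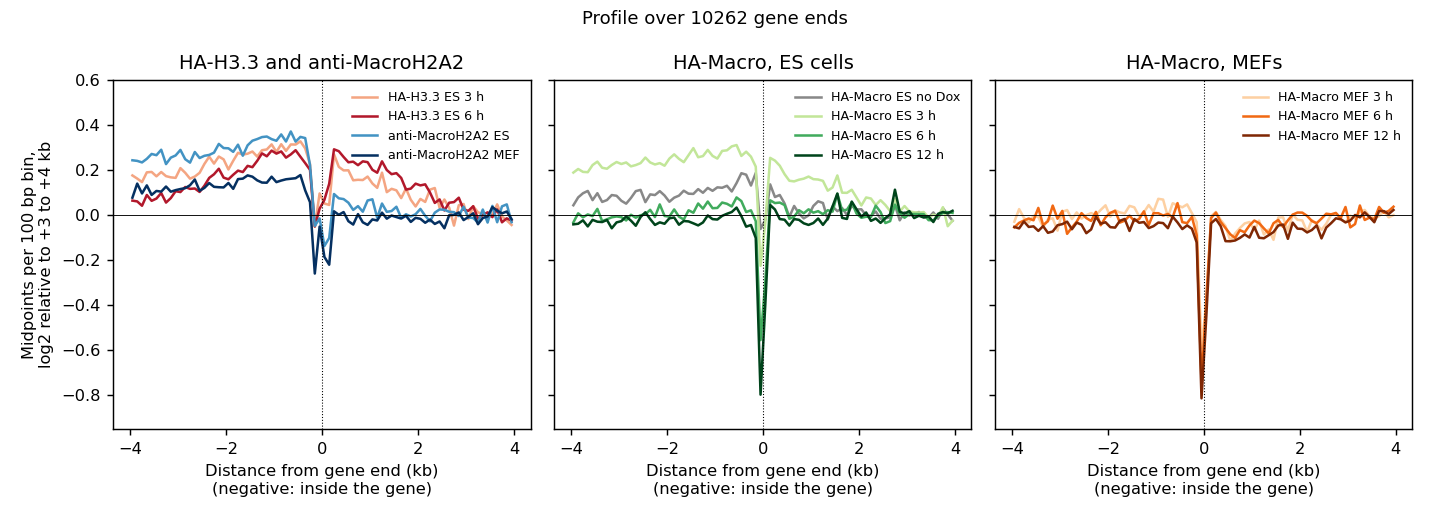
Interval midpoints in 100 bp bins from 4 kb before to 4 kb past 10262 gene ends, on a log2 scale relative to 3 to 4 kb past the end, 1 line per library. HA-H3.3 at 6 h stays raised past the end, anti-MacroH2A2 drops at the end and stays near 0, and all libraries of induced HA-Macro have a narrow depression at the end.

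Over all ends, anti-MacroH2A2 was higher in the gene than in the first 1 kb past it. In ES cells its level was 0.25 (0.23 to 0.27) from 4 to 3 kb before the end and 0.26 (0.24 to 0.28) in the last 1 kb, and fell to 0.02 (0.00 to 0.04) in the first 1 kb past the end. In MEFs the step was smaller, from 0.11 and 0.09 (0.07 to 0.10) before the end to -0.05 (-0.07 to -0.03) past it. Relative to the gene body, the first 1 kb past the end was at -0.23 (-0.25 to -0.21) in ES cells and -0.16 (-0.17 to -0.14) in MEFs, the lowest of the 11 libraries. Relative to the same body window, the last 1 kb itself did not stand out, at 0.01 (-0.01 to 0.03) in ES cells and -0.02 (-0.04 to -0.01) in MEFs. Divided by the share of unique words, the last 1 kb was at 0.18 in ES cells and 0.00 in MEFs relative to 3 to 4 kb past the end. In MEFs the last 1 kb thus no longer differed from that window. The step from the gene body to the first 1 kb past the end lies between windows with 91.1% and 91.3% unique words. It was not alike in all ends. In the lowest tertile of GC content, the last 1 kb and the first 1 kb past were at 0.02 and 0.04 in ES cells. In the highest tertile they were at 0.46 and 0.03. In MEFs these values were -0.01 and -0.01, and 0.22 and -0.06. With last exons of at least 4 kb, ES cells fell before the end, from 0.37 in the body window to 0.08 in the last 1 kb.

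HA-Macro in ES cells changed over the time course in the windows around gene ends. In the library without Dox, the background for anti-HA, the last 1 kb was at 0.13 (0.11 to 0.14), on all 19 autosomes above 0. That library was also raised within 600 bp of the TSS of the same genes, at 0.38 (0.37 to 0.40), so that it is not flat over genes. After 3 h of Dox it was at 0.23 (0.22 to 0.24), after 6 h at -0.01 (-0.03 to 0.00) and after 12 h at -0.08 (-0.09 to -0.07). The change from 3 to 12 h was -0.31 (-0.33 to -0.29) and went down on all 19 autosomes. With the 6 h in place of the 3 h library it was -0.07 (-0.09 to -0.05), and down on 17 of 19 autosomes, so most of the change lies between the 3 and 6 h libraries. The level past the end moved the same way, from 0.17 (0.15 to 0.18) at 3 h to -0.05 (-0.06 to -0.03) at 12 h. Relative to the gene body, however, the last 1 kb changed by -0.06 (-0.08 to -0.05) from 3 to 12 h, since the level 4 to 3 kb before the end also went from 0.21 to -0.03. With this scaling the first 1 kb past the end changed by 0.03 (0.01 to 0.05), so its direction depends on the scaling window.

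HA-Macro in MEFs stayed near the level 3 to 4 kb past the end at 3 h and lay slightly below it on both sides of the end at 12 h. The last 1 kb was at -0.02 (-0.04 to 0.00) after 3 h, -0.07 (-0.09 to -0.05) after 6 h and -0.11 (-0.12 to -0.10) after 12 h, a change of -0.09 (-0.12 to -0.07) that went down on all 19 autosomes. At 12 h the first 1 kb past the end was at -0.11 (-0.13 to -0.10) and the next 1 kb at -0.07 (-0.08 to -0.06), both below 0 on all 19 autosomes, and the gene body 4 to 3 kb before the end was at -0.06. In the last 1 kb MEFs differed from ES cells by -0.25 (-0.27 to -0.23) at 3 h, by -0.06 (-0.08 to -0.03) at 6 h and by -0.03 (-0.05 to -0.01) at 12 h. The 3 h difference was as large in the gene body, at -0.23 (-0.26 to -0.21), and scaled to the body the last 1 kb differed by -0.02 (-0.04 to 0.01) at 3 h and -0.05 (-0.07 to -0.02) at 6 h. No MEF library without Dox was analysed here, so the MEF values have no background of their own.

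The narrowest feature of the ends was a depression within 200 bp of the end base. Measured against the flanks from 500 to 1000 bp on both sides, its value over all ends was 0.00 (-0.02 to 0.02) in the library without Dox, -0.16 (-0.18 to -0.14) in HA-Macro ES cells at 3 h, -0.21 (-0.23 to -0.19) at 6 h and -0.26 (-0.28 to -0.24) at 12 h. In HA-Macro MEFs it was -0.22, -0.25 and -0.26 at 3, 6 and 12 h. HA-H3.3 gave -0.20 (-0.23 to -0.17) at 3 h and -0.21 (-0.23 to -0.19) at 6 h, and anti-MacroH2A2 gave -0.27 (-0.30 to -0.25) in ES cells and -0.24 (-0.27 to -0.22) in MEFs. All 19 autosomes were below 0 in each of these 10 libraries. Unique words made up 93.0% within 200 bp of the end and 91.5% in the flanks, and their part in the depression was not tested. At the middles of the same genes, measured in the same way, the 11 libraries lay between 0.00 and 0.04, and at the starts of the same genes they lay between 0.13 and 0.90, which is the opposite direction.

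**Figure D2:**
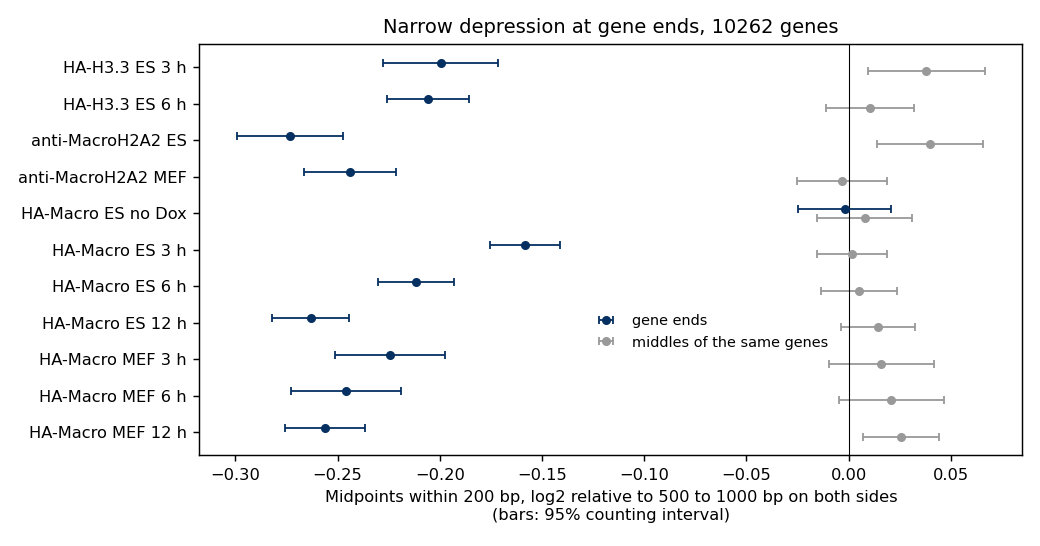
Midpoints within 200 bp of the end base (dark) and of the middle of the same genes (grey), log2 relative to 500 to 1000 bp on both sides, with 95% counting intervals. The ends lie between -0.27 and -0.16 in 10 libraries and at 0.00 without Dox, and the middles between 0.00 and 0.04 in all 11.

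In 50 bp bins the lowest point of the 150 bp libraries was the bin centred 25 bp before the end base in all 7 of them. This is the bin in which most AATAAA signals lie. Its level was -0.18 (-0.24 to -0.12) without Dox, -0.36 at 3 h, -0.69 at 6 h and -0.93 (-0.99 to -0.87) at 12 h in ES cells, and -0.70, -0.92 and -0.93 in MEFs. In ES cells this level was thus lower at each later time point, while in MEFs it was near its 12 h value from 6 h on. It is scaled to 3 to 4 kb past the end, and the 1 kb on each side of the end also fell from 3 to 12 h. Against the flanks, the depression changed from 3 to 12 h by -0.10 (-0.13 to -0.08) in ES cells and by -0.03 (-0.06 to 0.00) in MEFs. The 400 bp libraries, whose lines carry no strand, were lowest 125 or 175 bp away from the end base instead. Anti-MacroH2A2 in MEFs had low points on both sides, at 125 bp before the end (-0.33, -0.39 to -0.27) and 125 bp past it (-0.31), with -0.04 between them at 25 bp before the end. HA-H3.3 at 3 h had them at 175 bp before (-0.06) and 125 bp past the end (-0.05), with 0.11 between. HA-H3.3 at 6 h was lowest at 125 bp before the end (-0.08) and anti-MacroH2A2 in ES cells at 125 bp past it (-0.21). The depth of the depression is therefore comparable among libraries of 1 interval length only.

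GC content within 200 bp of the end divided the ends in all libraries, and the library without Dox differed from the others. In the high GC tertile (3421 ends, 49.3% GC in the mean) the last 1 kb was higher than in the low GC tertile (3421 ends, 34.0% GC) by 0.30 (0.26 to 0.34) in HA-H3.3 at 6 h, by 0.44 (0.39 to 0.48) in anti-MacroH2A2 in ES cells, by 0.21 in HA-Macro ES cells and by 0.30 in HA-Macro MEFs at 12 h. Without Dox the difference was -0.06 (-0.10 to -0.02). Scaled to the gene body these differences were 0.32, 0.24, 0.14, 0.20 and -0.07, in the same order. The near equality of HA-H3.3 before and past the end at 6 h did not hold within the outer tertiles. Relative to 3 to 4 kb past the end, low GC ends were at 0.07 in the last 1 kb and 0.20 in the first 1 kb past. High GC ends were at 0.37 and 0.27. The depression was deeper in the low than in the high GC tertile in the 10 libraries other than the one without Dox. HA-Macro ES cells at 12 h gave -0.49 in the low and -0.13 in the high GC tertile, HA-Macro MEFs at 12 h gave -0.46 and -0.09, and HA-H3.3 at 6 h gave -0.40 and -0.07. The middle tertile lay between them in these libraries except anti-MacroH2A2 in ES cells. That library was at -0.30 (-0.36 to -0.25), -0.36 (-0.40 to -0.31) and -0.21 (-0.24 to -0.17) from low to high GC. In HA-Macro ES cells at 3 h the low and middle tertiles were nearly alike, with -0.19, -0.18 and -0.12 from low to high GC. Without Dox the low GC tertile was instead raised at the end, at 0.13 (0.09 to 0.17), while the middle tertile was at -0.09 (-0.13 to -0.05) and the high GC tertile at -0.05 (-0.08 to -0.01), so that the 0.00 over all ends holds a rise and 2 shallow depressions. Base composition moves with the depression here, and its part in the result was not tested.

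**Figure D3:**
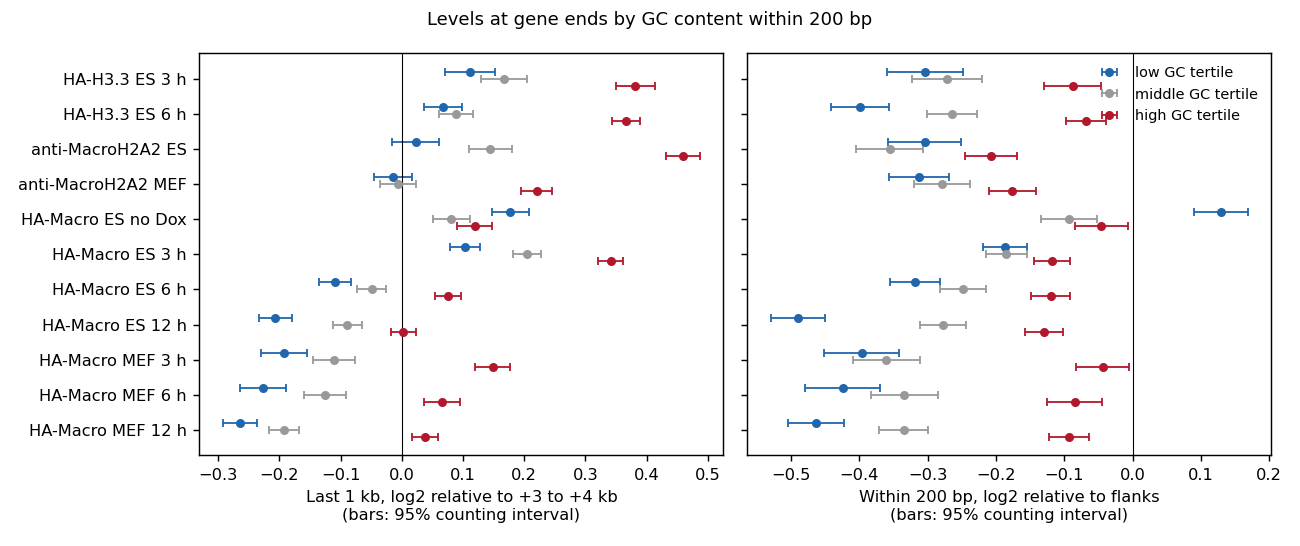
Level of the last 1 kb relative to 3 to 4 kb past the end (left) and of the 200 bp on each side of the end relative to the flanks (right), both log2, by tertile of GC content within 200 bp of the end, with 95% counting intervals. In the 10 libraries other than the one without Dox the high GC tertile lies above the low GC tertile in both panels, whereas without Dox the low GC tertile is at 0.13 in the right panel.

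Ends with AATAAA in the last 40 bases (5899) had a somewhat deeper depression than the 2901 ends with neither AATAAA nor ATTAAA. The difference was -0.09 (-0.13 to -0.04) in HA-Macro ES cells at 12 h, -0.12 (-0.16 to -0.07) in HA-Macro MEFs at 12 h and -0.09 (-0.15 to -0.04) in anti-MacroH2A2 in ES cells. In HA-H3.3 at 6 h it was -0.03 (-0.08 to 0.02), and without Dox it was 0.00 (-0.05 to 0.05). The groups also differ slightly in GC content (41.1% and 42.5%). Within the low GC tertile the difference was -0.15 (-0.24 to -0.06) in HA-Macro ES cells at 12 h and -0.07 (-0.17 to 0.02) in HA-Macro MEFs at 12 h, and in HA-H3.3 at 6 h it was 0.00 (-0.11 to 0.10). Within the middle tertile both HA-Macro libraries at 12 h gave -0.02, with intervals of -0.09 to 0.06 in ES cells and -0.10 to 0.06 in MEFs. Within the high GC tertile they gave -0.05 (-0.11 to 0.01) and -0.13 (-0.19 to -0.06). Anti-MacroH2A2 in ES cells gave -0.07 (-0.20 to 0.06), -0.01 (-0.12 to 0.10) and -0.13 (-0.22 to -0.05) from low to high GC. The intervals of the tertiles overlapped in each of these libraries, so the tertiles are not shown to differ. In HA-Macro ES cells at 6 h the interval left out 0 in the high GC tertile alone, at -0.08 (-0.14 to -0.02). The 1460 ends with ATTAAA in place of AATAAA were at -0.30 and -0.34 in the 2 HA-Macro libraries at 12 h, close to the -0.29 and -0.28 of the ends with AATAAA.

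The length of the last exon, which sets whether the last 1 kb lies within 1 exon or reaches beyond it, went with the level of the last 1 kb in most libraries. The share of coding sequence in the last 1 kb was not measured. Where the last exon was at least 4 kb (803 ends), the last 1 kb was lower than where it was under 1 kb (4193 ends) by -0.35 (-0.41 to -0.29) in HA-Macro MEFs at 12 h, by -0.31 (-0.39 to -0.24) in anti-MacroH2A2 in ES cells, by -0.21 (-0.26 to -0.15) in HA-Macro ES cells at 12 h and by -0.17 (-0.24 to -0.11) in HA-H3.3 at 6 h. In HA-Macro ES cells the difference was 0.00 (-0.06 to 0.05) at 3 h and -0.12 (-0.17 to -0.06) at 6 h, and without Dox it was -0.06 (-0.13 to 0.00). GC content moves with exon length, at 39.3% and 42.7%. The level 4 to 3 kb before the end ran the other way in some libraries, at 0.37 for the longest and 0.20 for the shortest last exons in anti-MacroH2A2 in ES cells and 0.37 and 0.12 in HA-Macro ES cells at 3 h. Scaled to this window, the last 1 kb was lower with the longest last exons in all 11 libraries, by -0.49 (-0.56 to -0.41) in anti-MacroH2A2 in ES cells, -0.33 (-0.39 to -0.27) in HA-H3.3 at 6 h, -0.25 (-0.30 to -0.20), -0.16 (-0.21 to -0.10) and -0.14 (-0.20 to -0.09) in HA-Macro ES cells at 3, 6 and 12 h, -0.23 (-0.28 to -0.17) in HA-Macro MEFs at 12 h and -0.08 (-0.14 to -0.01) without Dox. The first 1 kb past the end, scaled to 3 to 4 kb past it, differed by 0.01 (-0.05 to 0.07) in HA-H3.3 at 6 h, -0.03 (-0.11 to 0.05) in anti-MacroH2A2 in ES cells and -0.07 (-0.12 to -0.01) in HA-Macro MEFs at 12 h. In HA-Macro ES cells it was higher with the longest last exons, by 0.10 (0.05 to 0.15) at 3 h, 0.06 (0.01 to 0.12) at 6 h and 0.09 (0.04 to 0.15) at 12 h. These values past the end depend on the scaling. Scaled to the body they were -0.15 (-0.21 to -0.09) in HA-H3.3 at 6 h, -0.20 (-0.28 to -0.13) in anti-MacroH2A2 in ES cells and 0.06 (0.00 to 0.11) in HA-Macro MEFs at 12 h, and in HA-Macro ES cells -0.15 (-0.20 to -0.10) at 3 h, 0.02 (-0.03 to 0.07) at 6 h and 0.16 (0.11 to 0.21) at 12 h.

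Ends were also divided by what lies past them. In the 7331 ends with no other gene in the next 5 kb, HA-H3.3 at 6 h was at 0.25 (0.23 to 0.27) in the first 1 kb past the end, and in the 1681 ends that face the end of a convergent gene it was at 0.13 (0.10 to 0.16). In the latter the 3 to 4 kb window to which the level is scaled can lie in the neighbour. Anti-MacroH2A2 in ES cells gave 0.08 (0.06 to 0.11) and -0.20 (-0.24 to -0.16). The gene body 4 to 3 kb before the end moved with the grouping too, at 0.16 and -0.12 in HA-H3.3 at 6 h. Scaled to that window, the first 1 kb past the end was lower with no gene past it in HA-H3.3 at 6 h, 0.10 against 0.25, a difference of -0.15 (-0.19 to -0.11), so that the direction turns with the scaling. In anti-MacroH2A2 in ES cells the difference scaled in this way was 0.06 (0.01 to 0.11), from -0.24 and -0.30. Between the longest and shortest tertile of genes by length, the last 1 kb differed by -0.12 (-0.15 to -0.08) in HA-H3.3 at 6 h and by -0.07 (-0.10 to -0.03) in HA-Macro ES cells at 12 h.

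To ask whether ends follow HA-H3.3 at their own promoter, the ends were divided into quintiles by the HA-H3.3 midpoints at 3 h within 600 bp of the same gene's TSS. These counts were small, from 0 to 4 in the bottom and from 16 to 57 in the top quintile. Expression values were not used, so the quintiles do not measure transcription. Mean GC content at the end rose from 39.6% in the bottom to 42.2% in the top quintile. The amount of HA-H3.3 around the end rose with the quintile. At 6 h, a library the quintiles do not come from, the midpoints within 4 kb of an end were 2.95, 4.44, 5.41, 6.18 and 6.86 ppm of all mapped intervals per end from the bottom to the top quintile, against 3.12 to 3.45 ppm without Dox and 3.22 to 4.62 ppm in anti-MacroH2A2 in ES cells. The contrast between the last 1 kb and the window 3 to 4 kb past the same end differed little: at 6 h the top quintile was at 0.21 and the bottom quintile at 0.18, a difference of 0.03 (-0.02 to 0.08). Scaled to the gene body the difference was -0.10 (-0.15 to -0.04), and with only the ends that have no other gene past them it was 0.10 (0.03 to 0.17), so its direction depends on the setting. In the first 1 kb past the end, HA-H3.3 at 6 h was at 0.24 in the top and 0.15 in the bottom quintile, a difference of 0.09 (0.04 to 0.14), and anti-MacroH2A2 in ES cells was at -0.01 and 0.13, a difference of -0.14 (-0.21 to -0.08). Scaled to the body these differences were -0.04 (-0.09 to 0.02) and -0.19 (-0.25 to -0.12), so that the direction in HA-H3.3 depends on the setting here too. The depression at the end was deeper in the top quintile, -0.22 against -0.12 in HA-H3.3 at 6 h and -0.35 against -0.14 in anti-MacroH2A2 in ES cells. Without Dox the depression was at -0.01 in the top and 0.08 in the bottom quintile.

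HA-Macro around the ends also rose with the promoter quintile in ES cells. As ppm of all mapped intervals per end, the midpoints within 4 kb went from 3.13 in the bottom to 5.44 in the top quintile at 3 h, from 3.15 to 4.31 at 6 h and from 3.18 to 3.98 at 12 h. In MEFs at 12 h they were 2.93, 3.29, 3.24, 3.11 and 3.03 ppm, with no steady order. The contrast of the last 1 kb with 3 to 4 kb past the end, in turn, differed between quintiles in opposite directions at 3 h and later. In ES cells at 3 h this level rose from 0.10 in the bottom to 0.32 in the top quintile, a difference of 0.22 (0.18 to 0.26) that was above 0 on 18 of 19 autosomes. At 6 h the difference was -0.07 (-0.12 to -0.03) and at 12 h it was -0.15 (-0.19 to -0.11), below 0 on 16 of 19 autosomes. In MEFs it was -0.11 (-0.17 to -0.04) at 3 h, -0.10 at 6 h and -0.17 (-0.22 to -0.13) at 12 h, the last below 0 on all 19 autosomes. The quintiles come from ES cells, so in MEFs they do not describe the promoters of the same cells. Without Dox the difference was 0.00 (-0.06 to 0.05). The choice of scaling window decides the direction at 3 h. Scaled to the gene body 4 to 3 kb before the end, the last 1 kb differed between the quintiles by -0.06 (-0.10 to -0.02) at 3 h, -0.04 (-0.08 to 0.01) at 6 h and -0.04 (-0.08 to 0.01) at 12 h in ES cells, by 0.00, -0.01 and 0.00 in MEFs at 3, 6 and 12 h and by -0.05 (-0.10 to 0.01) without Dox.

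**Figure D4:**
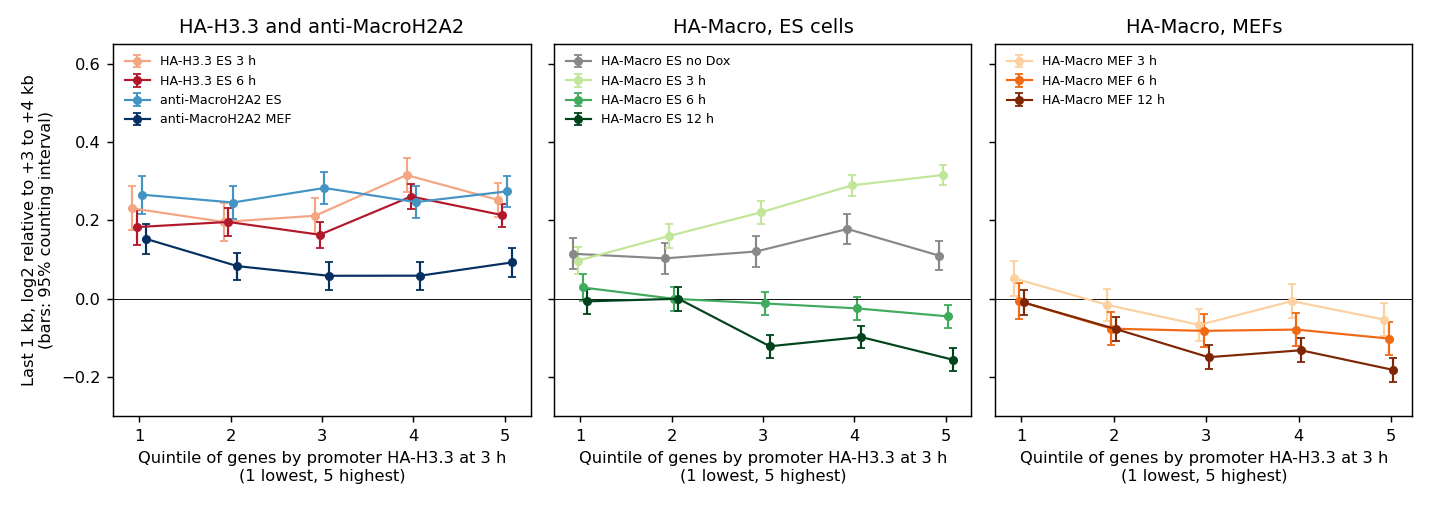
Level of the last 1 kb, log2 relative to 3 to 4 kb past the end, in quintiles of genes by HA-H3.3 midpoints at their promoters at 3 h (2052 or 2053 ends each), 1 line per library, with 95% counting intervals. HA-Macro ES cells at 3 h climb from 0.10 to 0.32, while ES cells and MEFs at 12 h go from -0.01 to -0.16 and -0.18.

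Single ends were compared by the midpoints in the last 4 kb over those in the next 4 kb, with 1 added to each, for ends with at least 60 midpoints. In HA-H3.3 at 6 h, 475 of 3353 such ends (14.2%) were past 2-fold higher before the end, where 18.2% of all protein-coding ends with as many midpoints were, and 450 (13.4%) were past 2-fold lower, against 17.3%. In anti-MacroH2A2 in ES cells 323 of 1074 (30.1%) were past 2-fold higher, against 28.3% of all protein-coding ends, and 44 (4.10%) lower, against 5.56%. In anti-MacroH2A2 in MEFs 271 of 2334 (11.6%) were higher, against 14.4%, and 58 (2.49%) lower, against 3.40%. The shares were thus below those of all ends in HA-H3.3 and in MEFs, and in ES cells the share higher before the end was slightly above. Most of the 10262 ends hold fewer than 60 midpoints in these libraries and enter no count. All protein-coding ends include those with a neighbouring TSS.

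Named genes are the most extreme under a fixed rule, so their values are descriptions. Those highest before the end in HA-H3.3 at 6 h were Cacna1c, Eif4g2, Glt8d2 and Wipi2, and those highest past the end were Tdg, 0610007P08Rik and Dennd4c. At Wipi2, an autophagy protein that binds phosphoinositides, HA-H3.3 at 6 h gave 247 midpoints in the last 4 kb and 23 in the next 4 kb, and at 3 h 65 and 13. The library without Dox gave 19 and 25 there, anti-MacroH2A2 gave 20 and 14 in ES cells and 22 and 25 in MEFs, and HA-Macro ES cells gave 92 and 51 at 3 h, 63 and 52 at 6 h and 54 and 59 at 12 h. The excess before the end of Wipi2 was thus seen in the HA-H3.3 libraries and the early HA-Macro ES library, and in HA-H3.3 at 6 h the log2 ratio was 3.42 (2.81 to 4.11) with nothing added. Unique words made up 100% of its last and 95% of its next 4 kb. At Eif4g2, a relative of the translation initiation scaffold eIF4G, the sequence past the end is mostly repeated, with 9.38% unique words in the next 4 kb against 93.8% in the last. The 4 libraries that are nearly empty in repeats held few midpoints there: HA-H3.3 gave 88 and 7 at 6 h and 37 and 1 at 3 h, and anti-MacroH2A2 gave 11 and 0 in ES cells, and 14 and 1 in MEFs. The ratio at Eif4g2 in these libraries therefore does not compare equally measured sides. HA-Macro ES cells gave 66 and 9 at 3 h, 30 and 12 at 6 h and 24 and 14 at 12 h, and the library without Dox 19 and 13. At Cacna1c, a pore subunit of L-type calcium channels with at least 98.8% unique words on each side, HA-H3.3 gave 87 and 6 at 6 h and 30 and 3 at 3 h. The other libraries were mostly higher before this end as well, with 41 and 20 in the ES library and 43 and 12 in the MEF library of anti-MacroH2A2, 71 and 29 in HA-Macro ES cells and 45 and 23 in MEFs at 12 h, and 18 and 12 without Dox.

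Dennd4c, which has a DENN domain of Rab exchange factors, was the reverse of Wipi2, with 13 midpoints before and 126 past the end in HA-H3.3 at 6 h and 6 and 44 at 3 h, against 23 and 13 without Dox. Its last 4 kb holds 57.5% unique words and its next 4 kb 83.8%. Tdg, a thymine DNA glycosylase that takes part in DNA demethylation, and Glt8d2 lie tail to tail and their last exons overlap (their end bases are 82113544 on the plus and 82113178 on the minus strand of chromosome 10), so that the 6 and 83 midpoints of Tdg at 6 h and the 82 and 7 of Glt8d2 are largely the same intervals read from opposite sides. Unique words make up 49.4% of the last 4 kb of Tdg and 50.0% of the next 4 kb of Glt8d2, the sides with few midpoints.

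In anti-MacroH2A2 the highest in ES cells were Rapsn, Sorcs2, Shank3 and Rnf44 and the lowest Rtn3, Shq1 and Cxcr5. Unique words made up 100% of the last and 60.6% of the next 4 kb of Sorcs2, so its ratio does not compare equally measured sides. Shank3, a scaffold of excitatory synapses, gave 93 midpoints before and 13 past its end in ES cells and 76 and 16 in MEFs. It was also unequal in HA-Macro MEFs, with 48 and 16 at 3 h, 54 and 10 at 6 h and 83 and 38 at 12 h, and in HA-H3.3 ES cells at 6 h, with 120 and 35, and less so without Dox, with 34 and 19. The side before the end of Shank3 was thus the higher in all these libraries. Rapsn, which clusters acetylcholine receptors at the neuromuscular junction, gave 62 and 6 in ES cells and 54 and 13 in MEFs.

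Shq1, an assembly factor of H/ACA ribonucleoproteins, was among the lowest in both cell types. It gave 18 midpoints before and 86 past its end in ES cells, and 27 and 207 in MEFs, where the log2 ratio was -2.94 (-3.58 to -2.36). HA-Macro gave 35 and 163 in MEFs and 26 and 161 in ES cells at 12 h, and the library without Dox gave 26 and 35. In MEFs the highest were Dnahc2, Atp2c2, Fam50b and Tubb3 and the other lowest were Os9 and Galnt3. The sides of Fam50b are not equally measured, with 100% unique words in the last and 41.9% in the next 4 kb. Atp2c2, a calcium pump of the Golgi, had 100 and 18 in MEFs, 66 and 31 in ES cells and 140 and 34 in HA-Macro MEFs at 12 h. Tubb3, the neuronal beta-tubulin, had 64 and 12 in MEFs and 58 and 14 in ES cells. Dnahc2, an axonemal dynein heavy chain, had 59 and 10 in MEFs but 29 and 21 in ES cells, and in HA-H3.3 at 6 h its sides were the other way around, with 41 before and 216 past the end. Os9, a lectin of ER-associated degradation, had 25 and 125 in MEFs and 27 and 76 in ES cells.

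Over the HA-Macro time course, midpoints within 2 kb of the end were compared between 12 and 3 h after scaling to each library's total, for ends with at least 60 midpoints in both together. In ES cells 1217 of 6743 ends (18.0%) were past 2-fold lower at 12 h, where 18.0% of all protein-coding ends were, and 123 (1.82%) were past 2-fold higher, against 1.98%. The median of these ends was -0.44, beside -0.41 over all protein-coding ends. In MEFs 20 of 2390 (0.837%) were higher, against 0.595% of all protein-coding ends, and 2 (0.0837%) lower, against 0.192%, with a median of 0.02. With the 6 h in place of the 3 h library, 27 of 5661 ends in ES cells (0.477%) were past 2-fold lower at 12 h, against 0.656% of all protein-coding ends, and 13 (0.230%) were higher, against 0.189%, with a median of -0.06 beside -0.09. In MEFs 18 of 2382 (0.756%) were higher at 12 than at 6 h, against 0.671%, and 4 (0.168%) lower, against 0.212%. So the move down in ES cells from the 3 h library was shared with gene ends at large and was mostly not seen from the 6 h library, and few ends in MEFs moved by as much as 2-fold.

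The largest decreases in ES cells were at Herc4, Anp32e and Plaa and the largest increases at Bcmo1, Zfp697 and Mapk6. At Anp32e, a chaperone that removes H2A.Z from nucleosomes, HA-Macro ES cells gave 65 midpoints within 2 kb of the end at 3 h, 34 at 6 h and 11 at 12 h, and MEFs gave 7, 13 and 23, with 22 without Dox. Scaled, its ES value fell by 2.68 on the log2 scale (-3.75 to -1.74). Herc4, a HECT domain ubiquitin ligase, gave 68, 22 and 8 in ES cells. At the zinc finger gene Zfp697 the ES values went the other way, with 30, 75 and 121 at 3, 6 and 12 h, 20 without Dox, and 22, 22 and 29 in MEFs. HA-H3.3 at the end of Zfp697 gave 14 at both time points, in libraries of 6488112 intervals at 3 h and 10722793 at 6 h. Unique words made up 98.75% of its last and 56.25% of its next 4 kb. The counts per end given here are not scaled, and the MEF libraries at 3, 6 and 12 h hold 11271295, 10896851 and 20541627 intervals. Mapk6, an atypical MAP kinase, gave 20, 49 and 80.

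In MEFs the largest increases included Klhl36 and Gdpd1 and the largest decreases at Trrap, Mrps18a and Srebf1. Klhl36 gave 12, 22 and 69 midpoints at 3, 6 and 12 h, a scaled log2 ratio of 1.66 (0.76 to 2.68), and Gdpd1 gave 13, 19 and 56. Trrap, a scaffold of histone acetyltransferase complexes, gave 32, 21 and 28, a scaled ratio of -1.06. Mrps18a, a protein of the mitochondrial ribosome, gave 34, 28 and 30. Srebf1, a regulator of lipid synthesis, gave 33, 26 and 30 in MEFs, and 116, 89 and 63 in ES cells, so that its level went down in both.

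Lists of genes of known role were compared by the same ratio of the last 4 kb to the next 4 kb. The median over all 10262 ends was 0.05 in HA-H3.3 at 6 h, with 5231 ends higher before and 4500 higher past the end. The 48 housekeeping genes, of translation, splicing, chaperones, transport and transcription, stood lower, with a median of -0.45, 15 higher before and 33 higher past the end, and a pooled value of -0.32 (-0.41 to -0.24). At 3 h the same list had a median of -0.10, 19 higher before and 28 past the end, and a pooled value of 0.01 (-0.12 to 0.14), where all ends gave 0.12, 5503 and 4019, and 0.14. The list was thus below all ends at both times, and further below them at 6 h, where the pooled value of all ends was 0.04. Their lowest was Eif3a, a subunit of translation initiation factor eIF3, with 23 and 86 midpoints, and their highest was Eif4g2, whose flank is mostly repeated sequence. In the first 1 kb past the end the housekeeping genes were at 0.43 (0.27 to 0.59) and the 27 pluripotency genes at 0.55 (0.34 to 0.77), beside 0.22 over all ends. In the pluripotency list the numbers of genes higher before and past the end were 12 and 15, with Trim71, an RNA-binding protein of stem cells, highest (110 and 57) and Dnmt3a, a DNA methyltransferase, lowest (15 and 35).

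Lists of genes of other lineages had positive medians in HA-H3.3 at 6 h, 0.36 in the 47 fibroblast and matrix genes, 0.30 in the 39 muscle and heart genes, 0.17 in the 54 neuronal genes and 0.15 in the 48 immune genes. In the first 1 kb past the end they were at -0.01, -0.18, 0.17 and -0.30, and of these the interval left out 0 in the immune list alone (-0.56 to -0.05). The 19 genes of 3′ end processing, whose products cut and polyadenylate transcripts, were at a median of 0.05, and in the first 1 kb past the end at 0.51 (0.17 to 0.85). Their highest was Zc3h4 (71 and 13) and their lowest Cpsf6, a subunit of cleavage factor I (32 and 82). Named likewise as highest and lowest of their lists were Runx2 (9 and 3) and Loxl2 (18 and 60) in the fibroblast and matrix list, Cacna1c and Scn3a (22 and 57) in the neuronal list, Myh3 (44 and 13) and Ryr1 (33 and 140) in the muscle and heart list, and Themis (11 and 2) and Il18r1 (3 and 13) in the immune list.

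In each MacroH2A2 library other than HA-Macro ES cells at 3 h, the muscle and heart genes had the highest pooled value of the 7 lists. In anti-MacroH2A2 in ES cells 29 of 39 were higher before the end and 9 past it, with a median of 0.36 and a pooled value of 0.51 (0.37 to 0.65), where all 10262 ends gave 5837 and 3786, 0.18 and 0.26. In anti-MacroH2A2 in MEFs 27 of 39 were higher before the end and 11 past it, with a median of 0.30 and a pooled value of 0.47 (0.36 to 0.59), where all ends gave 5491 and 4265, 0.08 and 0.14. In HA-Macro MEFs at 3, 6 and 12 h, 31, 26 and 30 of 39 were higher before the end, with medians of 0.36, 0.40 and 0.38, where 4907, 4643 and 4639 of all 10262 ends were higher before the end, with medians of 0.00, 0.00 and -0.04. Without Dox, in ES cells, the list had 23 higher before and 14 past the end, with a median of 0.20 and a pooled value of 0.17 (0.03 to 0.31), where all ends gave 5383 and 4279, 0.07 and 0.08. The immune genes in HA-Macro MEFs at 12 h went the other way, with 14 higher before and 30 past the end and a median of -0.13, where all ends gave 4639 and 5184. Housekeeping genes in HA-Macro ES cells at 3 h had a median of 0.24, 35 of 48 higher before the end, against 0.12 and 5895 of 10262 over all ends, but -0.11 at 6 h, with 19 higher before and 28 past the end, against 0.00, 4814 and 5084 over all ends.

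**Figure D5:**
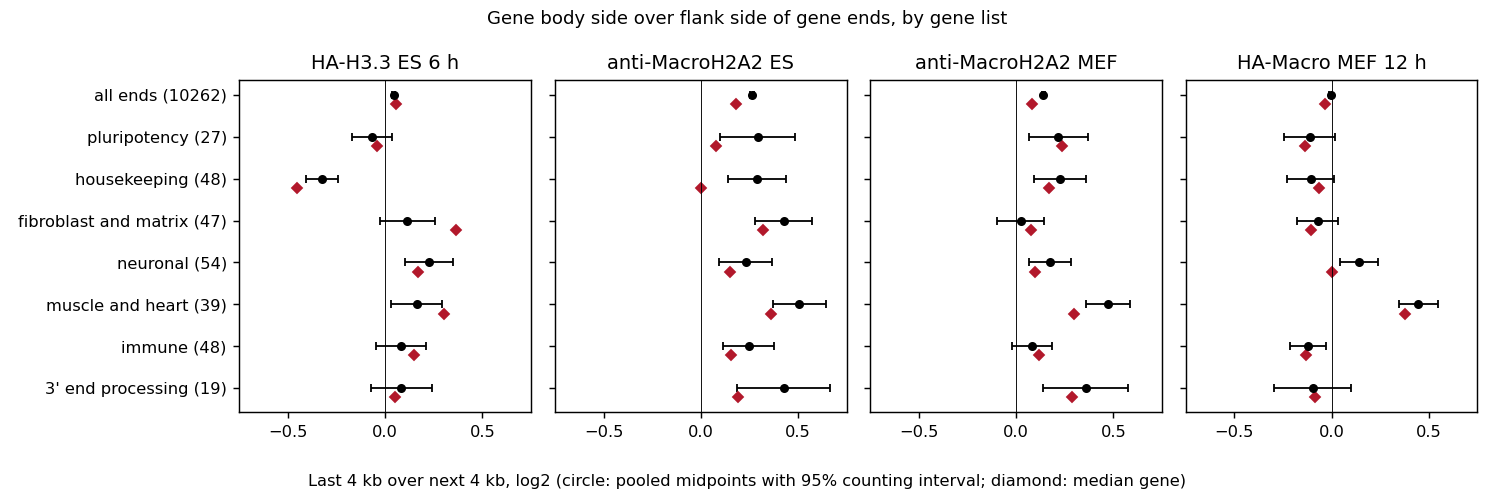
Midpoints in the last 4 kb over the next 4 kb, log2, for all 10262 ends and 7 gene lists (number of ends in brackets) in 4 libraries; circles are pooled midpoints with 95% counting intervals and diamonds the median gene with 1 added to each count. Housekeeping genes are at -0.32 in HA-H3.3 at 6 h, and muscle and heart genes at 0.47 in anti-MacroH2A2 in MEFs.

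Ends with a TSS within 5 kb, which the rule leaves out, gave a different picture in HA-H3.3. In the 2380 such ends of genes of at least 10 kb, HA-H3.3 at 6 h was at -0.11 (-0.13 to -0.08) in the last 1 kb and 0.12 (0.10 to 0.14) in the first 1 kb past the end, where the scaling window can hold the neighbour's promoter. Their depression was -0.25 (-0.28 to -0.21), and -0.44 (-0.49 to -0.39) in anti-MacroH2A2 in ES cells. With the TSSs of all annotated transcripts in the rule, 8782 ends remained, and HA-H3.3 at 6 h was at 0.18 (0.17 to 0.20) before and 0.19 (0.17 to 0.21) past the end.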

How the data were processed

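Chromatin of the 11 conditions was immunoprecipitated with anti-HA or anti-MacroH2A2 and sequenced. The authors merged identical reads but kept the number of times each occurred. They aligned the reads to mm9 with Bowtie 1.0 (at most 1 mismatch, 1 random place for a read with several) and lengthened them to fragments. These steps are described for all libraries, but the 4 files with 400 bp intervals hold almost no repeated sequence, and whether they were made in the same way is not given in the sources used here. The deposited files hold interval positions only, with no count, strand or score. Here midpoints were counted, strand-aware, in 100 bp and 50 bp bins around each end, and the 256 of 25686 tiles with the most midpoints without Dox were left out. Intervals are 95% Poisson intervals on log counts, or exact binomial (Clopper-Pearson) ones for single ends, and cover counting error only. Uniqueness is the share of 32-base words found 1 time in the mm9 genome. Sequences are from the mm9 genome and gene ends from GENCODE vM1. Named genes are the 4 highest and 3 lowest ratios in HA-H3.3 at 6 h and in each anti-MacroH2A2 library, and the 3 highest and 3 lowest over HA-Macro time, with at least 60 midpoints and, on each side of the end, 0.5 to 2 times the median without Dox. 1 gene that this rule names is not reported here. Each gene list names its highest and lowest in HA-H3.3 at 6 h. Members and lists were chosen with earlier results of these data known, and the window of the depression was set after its profile was seen. The counting was tested on simulated data. Python 3.11.15, numpy 2.4.6, pandas 2.3.3, scipy 1.17.1 and matplotlib 3.10.9 were used.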

Additional observations from a re-analysis of the deposited data

Results flagged for a closer look

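In HA-Macro, the level relative to 3 to 4 kb past the end differed between promoter quintiles in the opposite direction in ES cells at 3 h from ES cells at 12 h and from MEFs at 3 h. The difference between the top and the bottom quintile at 3 h was 0.278 from 4 to 3 kb before the end, 0.218 in the last 1 kb, 0.0867 within 200 bp of the end and 0.16 in the first 1 kb past it. In ES cells at 12 h the same differences were -0.112, -0.149, -0.207 and -0.0841, and in MEFs at 3 h they were -0.102, -0.105, -0.223 and -0.153. The ES library at 6 h, between these times, gave -0.04, -0.07, -0.10 and -0.03. Scaled to the gene body 4 to 3 kb before the end, the last 1 kb differed by -0.06 (-0.10 to -0.02) in ES cells at 3 h, -0.04 (-0.08 to 0.01) at 12 h and 0.00 (-0.06 to 0.06) in MEFs at 3 h. For the first 1 kb past the end these values were -0.12 (-0.16 to -0.08), 0.03 (-0.02 to 0.07) and -0.05 (-0.11 to 0.01). The signs thus depend on the scaling window and on the window measured. Each library has 1 sample, and the difference between them was not tested. The 3 h ES library also held 0.112% of its distinct intervals on chromosome Y, and its part in this result was not tested.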

How the results depend on the processing

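No paired analysis was possible because each condition has 1 library. Of 299 values recomputed under other settings, 203 stayed within their counting interval, 86 moved outside it and 10 changed sign. The depression at the end stayed below 0 in the 10 libraries other than the one without Dox under all settings tried. Scaled to 4 to 3 kb before the end, the last 1 kb was at 0.13 in HA-H3.3 at 6 h, 0.0091 and -0.021 in anti-MacroH2A2 in ES cells and MEFs, 0.047 without Dox and 0.0024 in HA-Macro MEFs at 3 h. The first 1 kb past the end was then at -0.011 in HA-H3.3 at 3 h, -0.23 in anti-MacroH2A2 in ES cells, -0.042 without Dox and -0.043 in HA-Macro ES cells at 3 h. With the same scaling the last 1 kb changed from 3 to 12 h by -0.065 in HA-Macro ES cells and -0.058 in MEFs, and its promoter quintiles differed by -0.097 in HA-H3.3 at 6 h and by -0.060 in HA-Macro ES cells at 3 h. With no other gene in the 5 kb past the end, the last 1 kb in HA-H3.3 at 6 h, anti-MacroH2A2 in ES cells and MEFs and the library without Dox was at 0.23, 0.33, 0.12 and 0.16, the ES change was -0.39 and the quintiles differed by 0.10. For the last 1 kb in HA-H3.3 at 6 h and anti-MacroH2A2 in ES cells and MEFs, genes of at least 50 kb gave 0.17, 0.23 and 0.064, division by the library without Dox gave 0.082, 0.14 and -0.038, and division by the share of unique words gave 0.12, 0.18 and 0.0028. Under these divisions anti-MacroH2A2 in ES cells was at -0.015 and -0.043 past the end. The TSSs of every transcript gave 0.18 for HA-H3.3 at 6 h, and the 6 h in place of the 3 h library gave an ES change of -0.067. Division by unique words, the use of the 6 h library and the scaling of the HA-Macro quintiles and of the other groups of ends to the body were chosen after seeing the data. The cause was not tested for any of these. Interval length and the lack of repeated sequence differ between the HA-Macro libraries and the other 4, and cannot be told apart from the antibody or tagged histone. Single ends hold few midpoints, so that small changes at 1 end were not detectable at this depth.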
